A study of Mus musculus with 15 samples.

Results

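The genes described here make, sense, move and export cholesterol. The list holds 34 genes, chosen by name: 19 enzymes of synthesis, 5 genes of sterol sensing, the 3 efflux genes Abca1, Abcg1 and Mylip, 3 genes of the LXR receptors and their phospholipid target, and 4 genes of sterol transport and storage. A gene was read from the probe set that carries its symbol alone, and where there were several, from the one with the highest mean over all arrays. Of the 34 genes, 30 had such a probe set, out of 22180 genes on the array. Acat2, Idi1, Nr1h2 and Soat1 had none and are left out. All 30 passed the filter on low values that kept 14822 genes.

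RNA of mouse myeloid cells was read on 15 arrays, as log2 RMA signal, in 5 groups of 3, all labelled C57Bl/6. The groups RB and GFW, named by the code in their titles, were CD11b+CD34+ spleen cells of wild-type mice treated with G-CSF, which drives progenitors out of the marrow. Cells carrying CD4, CD8, Ly6G, B220 or Ter119 were left out of them. GFK held the same sort from G-CSF-treated mice labelled iNOS knockout. GFE held such cells of wild-type mice after 3 days of culture in Stemspan medium with SCF and Flt3 ligand. MDSC held Ly6C+CD11b+ suppressor cells grown from marrow of mice with no G-CSF treatment named, under IL-13, GM-CSF and G-CSF, for a culture time not given in the sources used here. Populations of untreated mice that the series also describes are not analysed here. GFW, GFK and GFE share the first part of the bracketed code in their titles, whereas RB and MDSC each have their own, so for these 2 a difference between sets of arrays and one between cells cannot be told apart. Nothing in the labels makes the replicates separate mice, so p-values cover only how far these samples spread, possibly for technical reasons, and 3 arrays per group limit the precision.

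Some labels did not match their markers. Nos2, the gene of iNOS, stood at 8.84, 8.91 and 8.92 on the arrays labelled knockout and at 8.09, 8.32 and 8.43 on GFW, a difference of 0.61 (SE 0.12, limma adjusted p = 0.0125). The part of the transcript that its probe set reads is not known here. Ly6g, whose product was used to remove cells in the sort, had a mean of 12.19 on GFW, 12.08 on GFK and 6.28 on RB, while Cd34 had means of 7.19, 7.27 and 5.92. In GFE the mean of Cd34 was 11.28, and Itgam, which encodes CD11b, fell from 11.67 on GFW to 7.94.

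Animal cells build cholesterol from acetyl units through the mevalonate pathway, which runs to farnesyl diphosphate, then to squalene, and through the sterol ring to cholesterol. When sterols in the endoplasmic reticulum run low, the escort protein Scap carries the transcription factor precursors Srebf1 and Srebf2 to the Golgi, where they are cut and released, and Insig proteins hold Scap back when sterols are plentiful. When oxidised sterols accumulate, the LXR receptors instead switch on exporters such as Abca1 and Abcg1 and the ubiquitin ligase Mylip, which marks lipoprotein receptors for degradation. In macrophages and growing leukocytes these arms are known to work in opposite directions.

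Promoter sequence is shown for 5 genes with wide differences between the groups, 4 of the synthesis and sensing arm and 1 of the efflux arm. The choice was not by rank: Hsd17b7, Nsdhl and Msmo1 had promoter entries and wider ranges of group means than Insig1 but are not shown. Each run is the 250 bases before the gene's start, 5′ to 3′ on the gene's strand, from RefSeq with build GRCm38.p6, and capitals mark a CCAAT box on either strand or, in Hmgcs1 only, the letters TCACCCCAC.
Hmgcs1, chr13:119690101-119690350, plus strand: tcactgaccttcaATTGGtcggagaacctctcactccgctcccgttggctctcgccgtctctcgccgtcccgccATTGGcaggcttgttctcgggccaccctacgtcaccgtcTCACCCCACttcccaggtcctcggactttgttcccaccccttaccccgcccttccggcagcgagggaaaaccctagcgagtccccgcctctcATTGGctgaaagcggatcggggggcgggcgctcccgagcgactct
Cyp51, chr5:4104698-4104947, minus strand: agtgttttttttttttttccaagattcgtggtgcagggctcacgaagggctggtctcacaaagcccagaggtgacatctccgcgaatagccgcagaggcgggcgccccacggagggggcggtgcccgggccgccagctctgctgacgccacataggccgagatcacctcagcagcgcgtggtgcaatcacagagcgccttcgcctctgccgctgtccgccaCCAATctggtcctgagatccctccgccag
Lss, chr10:76531355-76531604, plus strand: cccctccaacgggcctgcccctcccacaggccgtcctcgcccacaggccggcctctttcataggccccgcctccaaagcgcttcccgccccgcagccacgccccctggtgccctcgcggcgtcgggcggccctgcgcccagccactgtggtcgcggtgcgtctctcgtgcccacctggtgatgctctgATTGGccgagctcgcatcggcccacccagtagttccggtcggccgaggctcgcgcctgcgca
Insig1, chr5:28071162-28071411, plus strand: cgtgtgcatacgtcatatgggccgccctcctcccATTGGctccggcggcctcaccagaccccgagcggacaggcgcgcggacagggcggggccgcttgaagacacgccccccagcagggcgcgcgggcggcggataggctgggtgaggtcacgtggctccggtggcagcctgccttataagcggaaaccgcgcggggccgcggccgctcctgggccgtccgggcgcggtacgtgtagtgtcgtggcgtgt
Abca1, chr4:53159896-53160145, minus strand: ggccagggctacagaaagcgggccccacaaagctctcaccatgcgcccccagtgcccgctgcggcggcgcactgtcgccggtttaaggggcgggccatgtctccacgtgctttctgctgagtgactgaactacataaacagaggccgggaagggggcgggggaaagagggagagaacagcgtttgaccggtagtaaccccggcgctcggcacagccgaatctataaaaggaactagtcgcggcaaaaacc

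The letters were searched on both strands in 300 bases, from 250 before to 50 after each start, in all 32851 promoter entries of 27025 genes. CCAAT, the box bound by NF-Y, a factor that often acts beside SREBP, lay in at least 1 entry of each of the 14 synthesis enzymes with both a probe set and a promoter entry, whereas 41.1% of all genes had it. Over all members with an entry it was in 21 of 24: Insig1, Insig2, Srebf1, Srebf2, Mylip, Lpcat3 and Npc2, which are not enzymes, had it too, and Abca1, Nr1h3 and Scap did not. Abcg1 had no entry in the table. TCACNCCAC, a loose form of the sterol regulatory element, was in 1 of the 24 members with an entry, Hmgcs1, at -137 from the start, and in 1.44% of all genes. The exact, longer sterol regulatory element, which overlaps it, was in 0 of the 24 and in 0.0999% of all genes. For the LXR element, only a spaced direct repeat with both copies spelled exactly was searched. That pattern was in 0 of the 24 and in 0.0148% of all genes, 4 of 27025. A pattern this rare cannot show whether members such as Abca1 and Srebf1 carry a looser form of the element, which was not searched. These are letter matches in a short window, and binding was not measured.

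The first comparison asked what changed when mobilised cells were kept for 3 days with SCF and Flt3 ligand (GFE minus GFW). The synthesis pathway rose nearly from end to end: 15 of the 17 enzymes measured were higher and 0 lower at an adjusted p under 0.05, with a median difference of 2.93 log2. Over all genes, 67.0% were called, 35.1% higher and 31.9% lower, with a median of -0.06. With each array's median subtracted that median becomes 0.07, and the higher share of calls goes from 52.3% to 63.8%. All 3 efflux genes fell. In these bulk samples, fewer cells of a type and less RNA per cell cannot be told apart.

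The enzyme with the widest span was Sqle, squalene epoxidase, which adds oxygen to squalene. Its signal was 6.28, 5.65 and 6.05 on GFW and 10.30, 10.46 and 10.39 on GFE, 21.0-fold higher (4.39 log2, SE 0.17, adjusted p = 4.83e-12). It stood at 6.94, 6.39 and 6.81 on RB, at 6.05, 6.21 and 6.49 on GFK and at 10.24, 9.94 and 10.15 on MDSC. All 6 arrays of cultured cells thus lay above all 9 arrays of cells not cultured.

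Hmgcs1, the synthase that joins acetyl units into HMG-CoA, followed the same order. Its values were 7.86, 7.40 and 7.84 on GFW, 8.22, 7.75 and 8.03 on GFK, 8.34, 8.08 and 8.67 on RB, 10.44, 10.26 and 10.18 on MDSC, and 11.50, 11.47 and 11.53 on GFE. It rose by 3.80 log2 after culture (SE 0.16, adjusted p = 1.40e-11), and GFE lay above MDSC by 1.21 log2. GFK overlapped both GFW and RB.

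Fdps makes farnesyl diphosphate, the branch point to sterols and to lipid anchors of proteins. It read 7.09, 7.62 and 7.47 on GFW, 6.90, 7.45 and 7.44 on GFK, 7.79, 7.32 and 7.34 on RB, 10.81, 10.94 and 10.85 on GFE, and 11.33, 11.23 and 11.30 on MDSC. The groups not cultured overlapped one another. Here MDSC arrays were the highest, all above all GFE arrays, but the difference of 0.42 did not pass (SE 0.17, adjusted p = 0.0653). It passed where only the 6 arrays compared were fitted (adjusted p = 0.00369) and with the trended prior (adjusted p = 0.0459).

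Further along, Cyp51 removes a methyl group from lanosterol, and Hsd17b7 and Nsdhl act in the steps that strip the next methyl groups. Cyp51 read 6.55, 6.41 and 6.34 on GFW, 6.55, 6.35 and 7.03 on GFK, 6.90, 5.99 and 7.14 on RB, 10.45, 10.50 and 10.39 on GFE, and 9.62, 9.63 and 9.79 on MDSC. Hsd17b7 was 5.57, 5.37 and 5.87 on GFW, 5.13, 5.49 and 5.61 on GFK, 4.53, 4.94 and 6.00 on RB, 9.12, 9.18 and 9.0 on GFE, and 8.32, 8.53 and 8.44 on MDSC. Both genes had their highest spread on RB (SD 0.61 and 0.76, n = 3) and a spread of at most 0.11 on GFE and MDSC.

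Nsdhl was 7.36, 7.15 and 7.76 on GFW, 6.72, 6.89 and 6.93 on GFK, 7.23, 7.10 and 7.49 on RB, 10.36, 10.42 and 10.41 on GFE, and 9.33, 9.60 and 9.44 on MDSC. After culture Cyp51 rose by 4.02 (SE 0.23), Hsd17b7 by 3.50 (SE 0.26) and Nsdhl by 2.97 log2 (SE 0.15). Lanosterol synthase, Lss, which closes the sterol ring, rose by at least 3.51, since its GFW mean of 5.44 ranked at percentile 37.2 of single-gene probe sets, near background. Msmo1 (2.96), Fdft1 (2.93), which makes squalene, and Dhcr7 (2.38), which carries out the last reduction, followed.

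**Figure D1:**
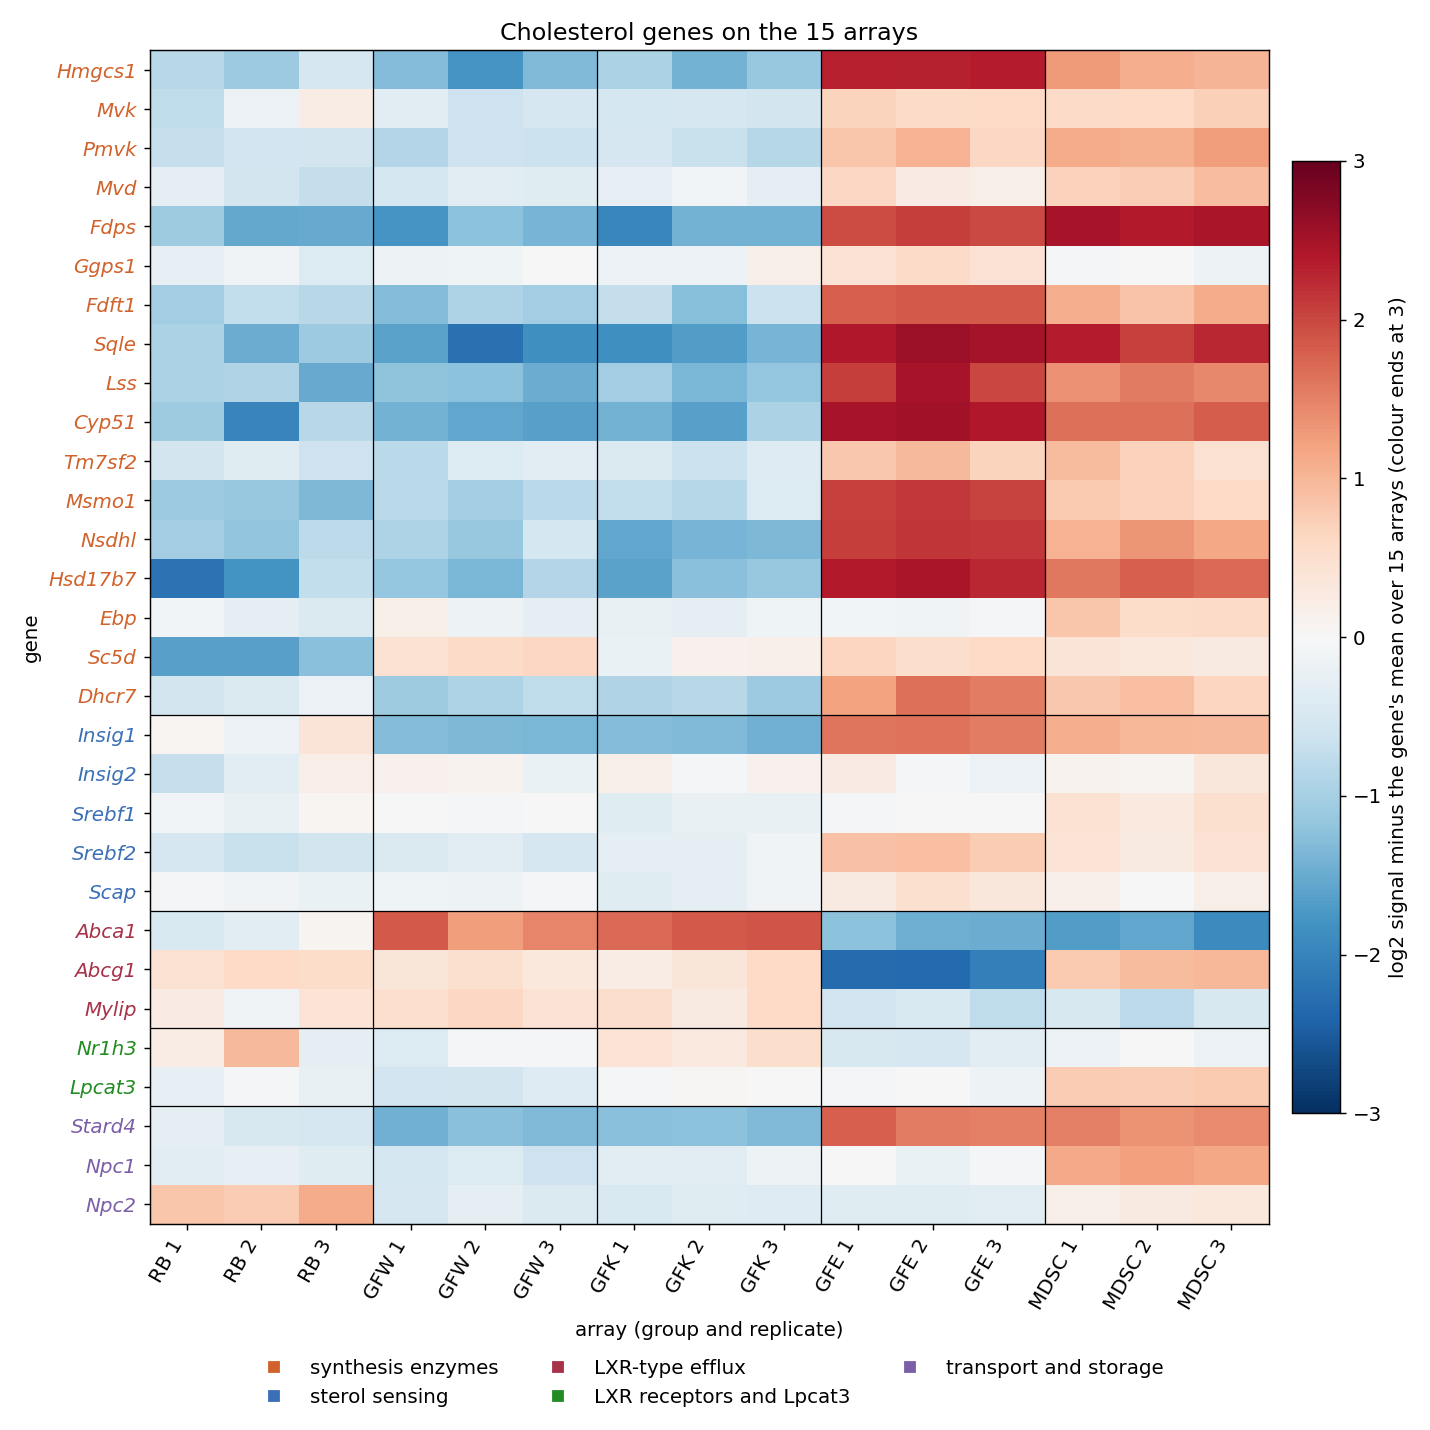
Log2 signal of the 30 genes (rows, grouped and coloured by role) on each of the 15 arrays (columns, group and replicate), as the difference from the gene's own mean, red for higher and blue for lower. Most synthesis enzymes, Insig1 and Stard4 are red on the 6 arrays of cultured cells, where Abca1 and Mylip are blue, and Abcg1 is blue on GFE only.

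The pathway was also divided at squalene, after the values were seen and with no test between the parts. Of the 11 enzymes from squalene on, 9 rose, with a median of 2.96, and of the 6 enzymes to farnesyl and geranylgeranyl diphosphate, 6 rose, with a median of 1.31. Within the early part Hmgcs1 and Fdps stood apart from the kinases Mvk (1.09) and Pmvk (1.54) and the decarboxylase Mvd (0.75). Ggps1, which makes geranylgeranyl diphosphate for protein anchors and not for sterols, rose by 0.57 (adjusted p = 4.72e-04). The sterol reductase Tm7sf2 rose by 1.33.

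The 2 enzymes not called after culture were Ebp, the isomerase that moves a ring double bond, and Sc5d, the desaturase that follows it. The signal of Ebp was 8.81, 8.46 and 8.32 on GFW and 8.54, 8.51 and 8.56 on GFE, and the difference was 0.01 (SE 0.13, adjusted p = 0.96). Sc5d was 9.82, 9.94 and 9.98 on GFW and 10.01, 9.90 and 9.96 on GFE, with a difference of 0.04 (SE 0.12, adjusted p = 0.766). These 2 genes were singled out after their values were seen.

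Among the sensing genes, Insig1, itself a known SREBP target, was the one with the widest span. It stood at 7.92, 7.88 and 7.86 on GFW, 7.93, 7.90 and 7.80 on GFK, 9.28, 9.06 and 9.61 on RB, 10.84, 10.87 and 10.76 on GFE, and 10.33, 10.23 and 10.21 on MDSC. It rose by 2.93 after culture (SE 0.12, adjusted p = 8.26e-12). RB held a middle place, above GFW and GFK and below both cultured groups, with no overlap. Insig2, whose transcript is less dependent on sterols, lay between 6.44 and 7.45 on all 15 arrays and was not called in any of the 6 comparisons over all arrays. It was called lower in RB minus GFW without RB replicate 3 (-0.53, adjusted p = 0.0123), and higher in MDSC minus RB without that array (0.69, adjusted p = 0.00215) and with array medians subtracted (0.51, adjusted p = 0.0345).

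Srebf2, the factor that mainly drives cholesterol genes, was 8.89, 8.98 and 8.82 on GFW, 9.04, 9.03 and 9.22 on GFK, 8.81, 8.65 and 8.78 on RB, 10.20, 10.22 and 10.09 on GFE, and 9.72, 9.60 and 9.76 on MDSC. It rose by 1.27 after culture (SE 0.10, adjusted p = 1.34e-08). Srebf1, which mainly drives fatty acid genes and is an LXR target, read 7.69, 7.68 and 7.69 on GFW, 7.36, 7.48 and 7.50 on GFK, 7.62, 7.49 and 7.77 on RB, 7.65, 7.70 and 7.69 on GFE, and 8.17, 8.01 and 8.19 on MDSC. Its difference after culture was -0.01 (SE 0.10, adjusted p = 0.957), and only the MDSC arrays lay above all others. Scap rose by 0.47 (adjusted p = 8.91e-04). The array does not measure the cut, active form of either factor.

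The efflux genes ran the other way after culture. Abca1, which loads cholesterol and phospholipid onto lipid-poor apolipoproteins, was 8.81, 8.23 and 8.44 on GFW, 8.68, 8.82 and 8.86 on GFK, 6.52, 6.65 and 7.04 on RB, 5.75, 5.51 and 5.47 on GFE, and 5.29, 5.40 and 5.07 on MDSC. It fell by 2.92 log2 after culture (SE 0.16, adjusted p = 2.33e-10). GFW and GFK overlapped at the top, RB was lower than both with no overlap, and the cultured groups were lowest.

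Abcg1, which exports cholesterol to mature lipoprotein particles, was 9.02, 9.13 and 8.98 on GFW, 8.89, 9.02 and 9.26 on GFK, 9.11, 9.26 and 9.22 on RB, 6.36, 6.33 and 6.60 on GFE, and 9.44, 9.62 and 9.66 on MDSC. It fell by 2.61 after culture (SE 0.12, adjusted p = 2.31e-11). Low values were thus seen on GFE alone, and the 3 MDSC arrays were the highest of the 15.

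Mylip was 8.22, 8.35 and 8.15 on GFW, 8.26, 8.0 and 8.32 on GFK, 7.97, 7.62 and 8.14 on RB, 7.14, 7.27 and 6.97 on GFE, and 7.25, 6.94 and 7.23 on MDSC. It fell by 1.11 after culture (SE 0.14, adjusted p = 4.88e-06). The 2 cultured groups overlapped each other and lay below the 9 other arrays. The LXR receptor gene Nr1h3 was low, between 5.44 and 6.93 on all arrays, and was not called after culture (-0.28, SE 0.22). Lpcat3, the acyltransferase that puts polyunsaturated chains into phospholipids and is known as an LXR target, rose by 0.44.

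**Figure D2:**
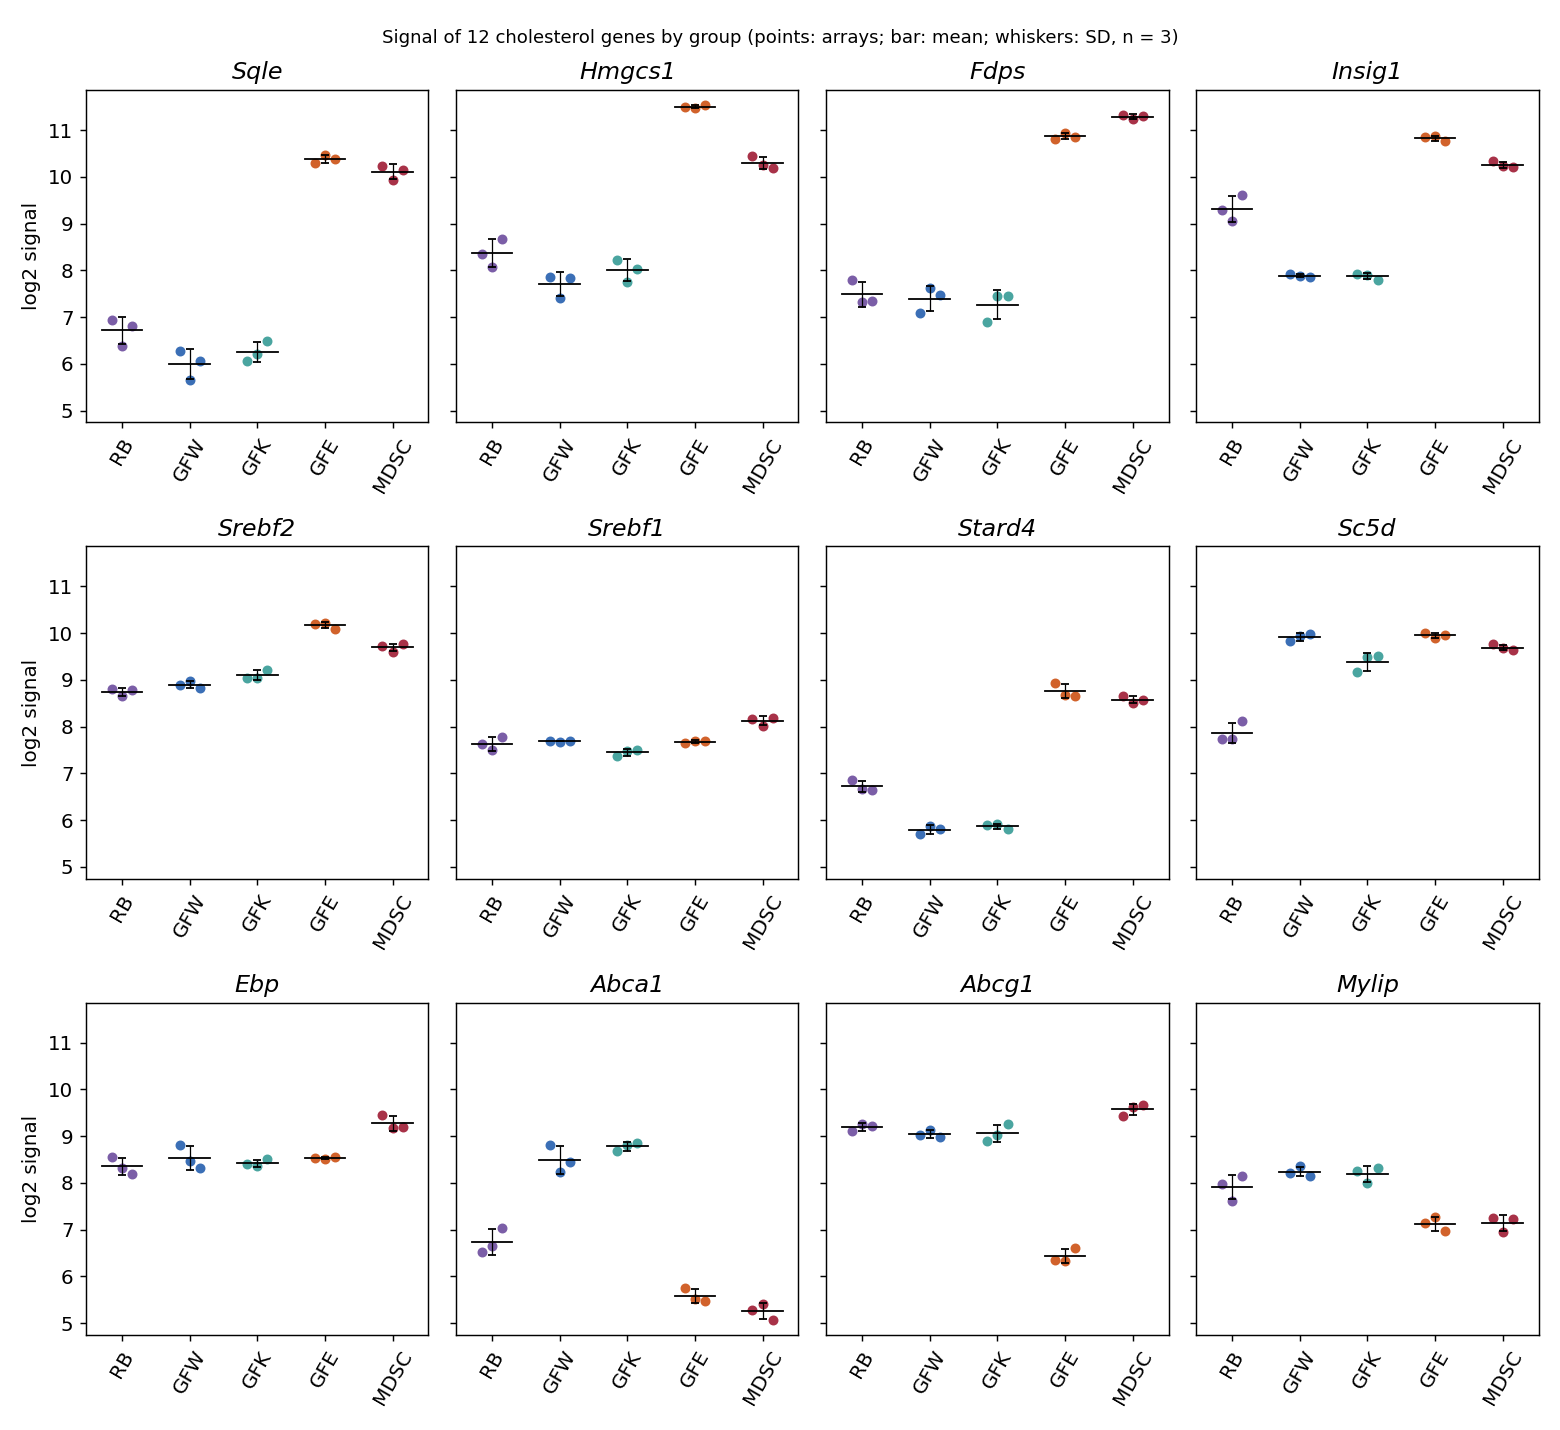
Log2 signal of 12 of the genes by group (points are arrays, horizontal bars the group mean, whiskers the SD of 3 arrays, 1 shared vertical axis). Sqle, Hmgcs1, Fdps and Stard4 lie highest on GFE and MDSC, Sc5d is low on RB alone, and Abcg1 is low on GFE alone.

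Of the transport genes, Stard4, a carrier of sterol between membranes and a known SREBP target, moved with the enzymes. It read 5.70, 5.88 and 5.81 on GFW, 5.89, 5.91 and 5.81 on GFK, 6.86, 6.67 and 6.64 on RB, 8.93, 8.67 and 8.66 on GFE, and 8.65, 8.50 and 8.57 on MDSC. It rose by 2.96 after culture (SE 0.11, adjusted p = 1.85e-12). Npc1 and Npc2 hand cholesterol out of the lysosome. Npc2, a soluble protein of the lysosome lumen, differed by 0.04 (SE 0.11) after culture. Npc1, its membrane partner, rose by 0.44, but its second, dimmer probe set ran the other way, and the mean of both gave -0.16 (adjusted p = 0.43).

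Lists of neighbouring pathways moved in part with the enzymes. Over all genes 35.1% were called higher and 31.9% lower, and in lists this short counts near those shares say little. In these lists Fntb, Rabggtb, Pdss2 and Me1 passed the filter on low values only with the cultured groups. Vldlr passed it through GFK and GFE, Msr1 through RB and MDSC, and Ch25h through MDSC. The differences of these genes from the other groups, and their places in the counts, thus follow in part from the filter and are given as a description. In the list of fatty acid synthesis and desaturation, 8 of 8 measured genes rose after culture, with a median of 3.08. The desaturase Fads2 rose by 4.44 (11.10 ± 0.10 on GFE against 6.67 ± 0.36 on GFW, SD, n = 3) and Fads1 by 3.43. The stearoyl desaturase Scd1 and the malic enzyme Me1 each rose by at least 3.58, with GFW near background. Of the genes that supply electrons and acetyl units, 6 of 8 rose and 1 fell, led by the cytochromes Cyb5b (1.88) and Cyb5a (1.19) and the citrate lyase Acly (1.16). In the isoprenoid branch 10 of 12 rose and 0 fell, with a median of 1.08, among them Coq2 (1.59) of ubiquinone synthesis and the protease Zmpste24 (1.47). The prenyl transferase subunit Rabggtb had the widest difference, at least 2.28, but its GFW arrays spread over 3.69, 4.72 and 6.75. Leaving out GFW replicate 1 gave 1.60 and leaving out GFW replicate 3 gave 3.13, with adjusted p-values of up to 0.0285 over all arrays left out in turn.

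In the list of SREBP processing and sterol-regulated degradation, 3 of 7 rose and 1 fell, with the protease Mbtps2, which makes the second cut in SREBP, at 1.24 and the ubiquitin ligase Rnf145 at -0.78. Of 11 further LXR-responsive or sterol-handling genes, 2 rose and 7 fell, not counting a call on the sterol hydroxylase Ch25h, whose signals lay under the floor of the filter in both groups. The lipoprotein lipase Lpl (3.94) and the ester hydrolase Nceh1 (2.64) rose, whereas Smpdl3a (-2.24) and the mitochondrial membrane protein Tspo (-1.88) fell. Of 11 lipoprotein and scavenger receptors, 4 rose and 4 fell, near the shares over all genes (35.1% and 31.9%). Vldlr rose by at least 2.36 and Cd36 by 2.23, and Lrp1 (-2.36) fell.

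Markers of cell types moved with these differences. All 14 measured genes of dividing cells rose after culture, and their mean signal went from 7.38 ± 0.08 on GFW to 9.60 ± 0.02 on GFE (SD, n = 3). All 15 neutrophil markers fell, with the mean going from 11.24 to 6.56, while 10 of 14 progenitor markers rose and 3 fell, from 7.24 to 9.18. Of 14 monocyte and macrophage markers 11 fell and 3 rose, beside 31.9% of all genes lower and 35.1% higher. The part of these changes in the rise of the cholesterol genes was not tested.

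The second comparison set marrow-grown suppressor cells against mobilised cells that were never cultured (MDSC minus RB), and shares no array with the first. Of the 17 enzymes, 16 were higher and 0 lower, with a median of 1.87. Of all genes 48.1% were called, 27.4% higher and 20.7% lower, with a median of 0.04. The exception was Ggps1 (0.17, SE 0.12, adjusted p = 0.257). Fdps was highest by 3.81 (SE 0.17, adjusted p = 4.09e-11), followed by Sqle (3.39), Hsd17b7 (at least 3.27, RB being near background) and Cyp51 (3.01). Hmgcs1 was higher by 1.93.

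All 11 enzymes from squalene on were called here. Ebp was higher by 0.92 and Sc5d by 1.82, the latter against RB arrays that were low for this gene alone among the groups. Insig1 was higher by 0.94, Srebf2 by 0.95, Srebf1 by 0.49 and Stard4 by 1.85. Abca1 was lower by at least 1.49, its MDSC mean of 5.25 being at percentile 37.2 of probe sets, and Mylip by 0.77. Abcg1 was higher by 0.38 (adjusted p = 0.015), a call lost without MDSC replicate 3 or RB replicate 1, at an adjusted p of up to 0.0589. Npc1 was higher by 1.48, Lpcat3 by 0.93, and Npc2 lower by 0.64.

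**Figure D3:**
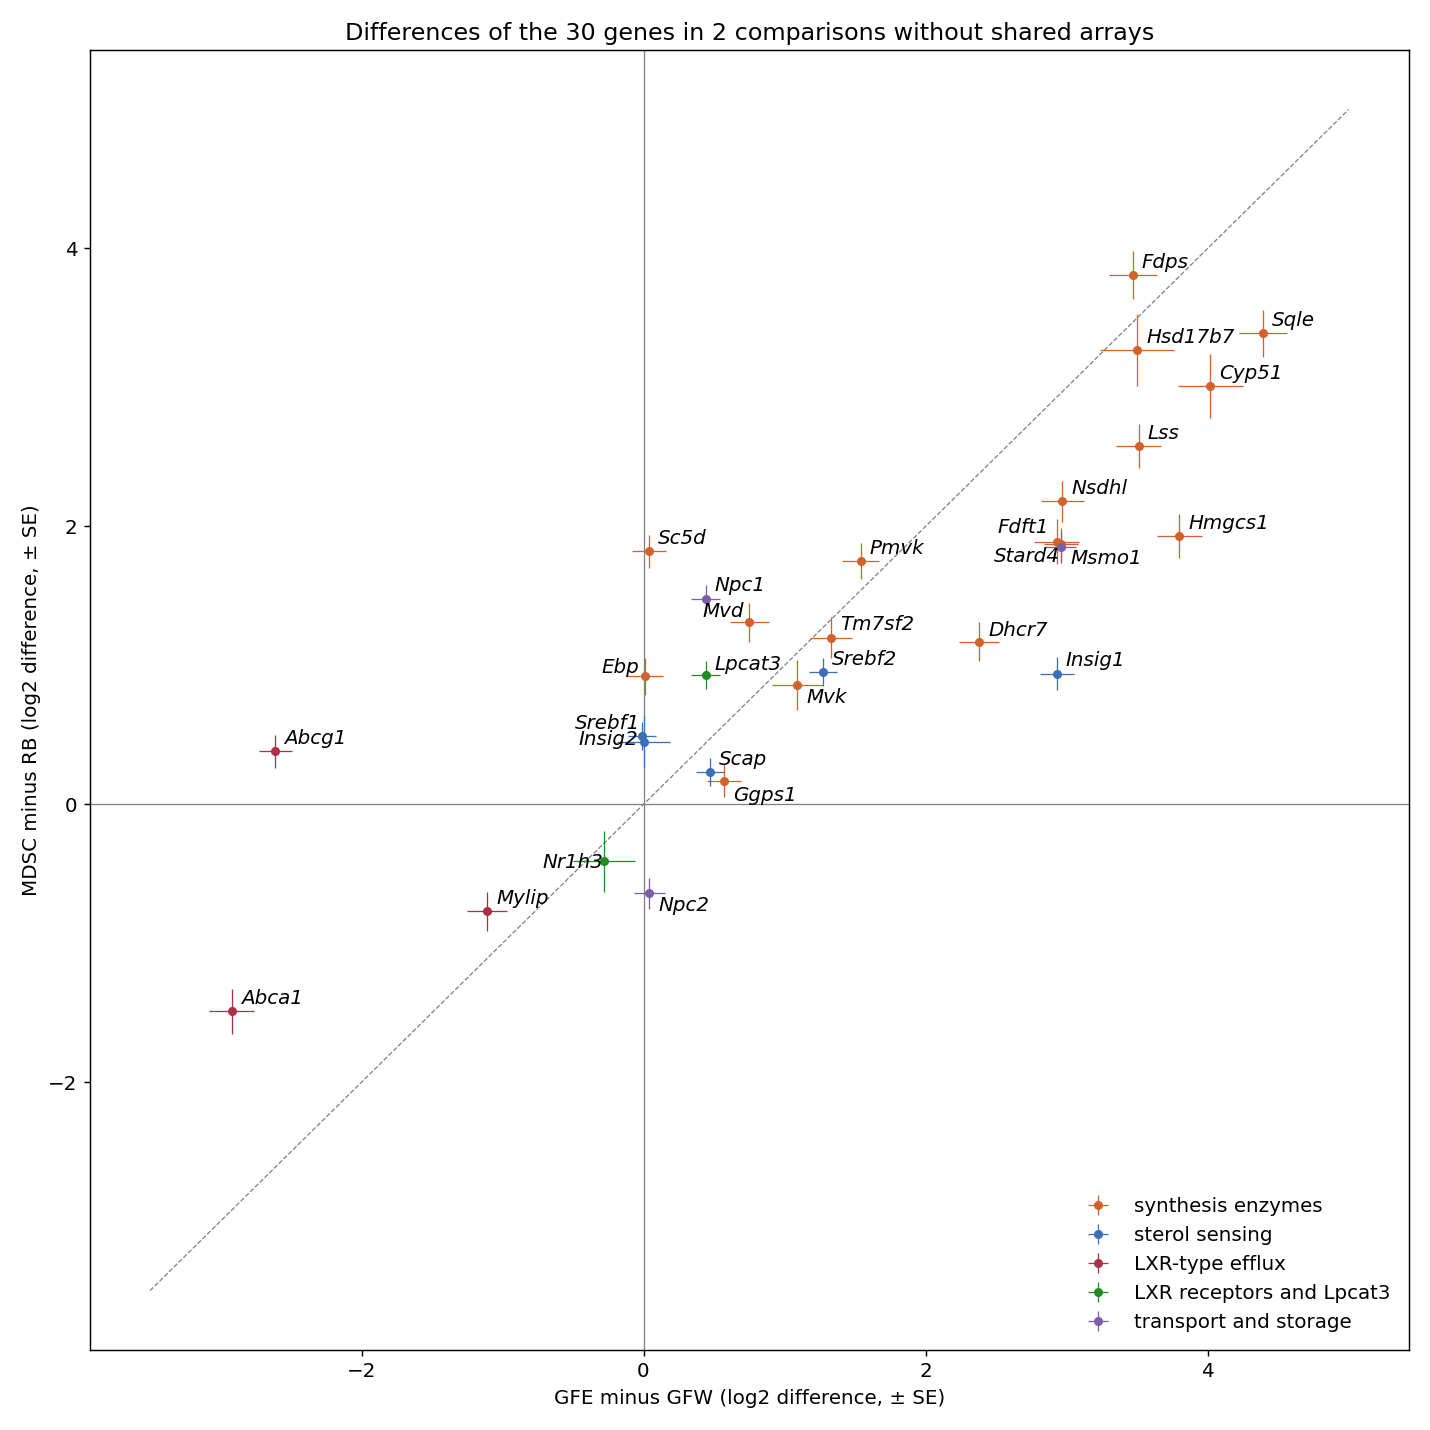
Log2 difference (± SE) of each of the 30 genes in GFE minus GFW (horizontal) and MDSC minus RB (vertical), coloured by role, with the line of equal difference dashed. Synthesis enzymes lie at or above 0 on both axes, Abca1 and Mylip below 0 on both, and Abcg1 lies at -2.61 and 0.38.

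Across the 30 genes the differences of these 2 comparisons correlated with Pearson's r = 0.84 and Spearman's rho = 0.87, and 27 of 30 had the same sign. Over all 14822 genes r was 0.42 and rho 0.46, and 65.1% had the same sign. These are descriptions across genes, which are not independent replicates, and both comparisons set a cultured against an uncultured group. For 18 of the 30 genes, all 6 cultured arrays lay above all 9 arrays of cells not cultured, among them 14 of the 17 enzymes, Insig1, Srebf2, Scap and Stard4. Over all genes this held for 15.6%. The reverse held for Abca1 and Mylip and for 8.49% of all genes.

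The neighbouring lists were again called in part, beside 27.4% of all genes higher and 20.7% lower. Of the fatty acid genes 7 of 8 were higher in MDSC than in RB, with a median of 2.13: Scd1 by at least 5.68, Fads2 by 5.27 and Fasn by 2.99. Of the other LXR-responsive and sterol-handling genes, 4 were higher and 6 lower of 11, with the sterol hydroxylase Cyp27a1 at -4.45 (a bound, MDSC being near background) and the lipid transfer protein Pltp at -2.72. Ch25h is 1 of the 4. Of the isoprenoid genes 5 of 12 were higher and 1 lower, with Nus1 of dolichol synthesis at 1.12 and the farnesyl transferase subunit Fntb at 1.12 or more. Among 8 genes of electrons and acetyl units 5 were higher and 1 lower, of the SREBP processing genes 1 of 7 higher and 3 lower, and of the receptors 3 of 11 higher and 4 lower. Cyb5b differed by 1.78 and Aacs by 1.11, Rnf145 by -0.66, Mbtps2 by 0.52, and the receptors Lrp1 by -2.07 and Lrp8 by 1.77. The Mbtps2 call was lost without MDSC replicate 1, MDSC replicate 2, RB replicate 1 or RB replicate 3 (adjusted p up to 0.166). The 14 genes of dividing cells were all higher too, with means of 7.45 on RB and 10.01 on MDSC. Of 14 monocyte and macrophage markers 11 were lower, with means of 10.18 and 7.69. Of the neutrophil markers 8 of 15 were higher and 4 lower, and of the progenitor markers 9 of 14 higher and 2 lower. Their part in the result was not tested.

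Against the GFW set, MDSC gave a similar count: 15 of 17 enzymes were higher and 0 lower (62.2% of all genes called, 32.3% higher and 30.0% lower, median -0.08), with a median of 1.86. Ggps1 (0.02) and Sc5d (-0.22) were not called. Stard4 was higher by 2.77, Insig1 by 2.36 and Npc1 by 1.69, Abca1 was lower by at least 3.24 and Mylip by 1.10, and Abcg1 was higher by 0.53. With each array's median subtracted, the median of all genes becomes 0.04 and the higher share of calls goes from 51.8% to 63.2%. Fatty acid genes were higher in 8 of 8 and isoprenoid genes in 9 of 12, with 1 lower. The other lists were mixed: further LXR-responsive and sterol-handling genes gave 5 higher and 6 lower of 11. Receptors gave 6 higher and 1 lower of 11, not counting a call on Vldlr, which lay under the floor of the filter in both groups. Genes of electrons and acetyl units gave 3 higher and 1 lower of 8, and SREBP processing genes 1 higher and 1 lower of 7. All 14 genes of dividing cells were higher. Of the neutrophil markers 10 of 15 were lower and 3 higher, of the monocyte and macrophage markers 7 of 14 lower and 3 higher, of the progenitor markers 6 lower and 6 higher of 14, of the B cell markers 6 of 6 lower, of the T and NK cell markers 3 of 5 lower and 1 higher, and of the erythroid and megakaryocyte markers 3 of 6 lower. Their part in the result was not tested. This comparison shares its GFW arrays with the first and its MDSC arrays with the second.

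The 2 cultured groups were compared directly to see where they part (MDSC minus GFE). Of the 17 enzymes, 8 were lower in MDSC and 2 higher, with a median of -0.56. Of all genes 35.5% were called, 18.9% lower and 16.6% higher, with a median of 0.00. Those furthest apart were Msmo1 (-1.38, SE 0.12, adjusted p = 1.99e-07), Hmgcs1 (-1.21), Nsdhl (-0.94), Fdft1 (-0.81) and Cyp51 (-0.77). Ebp (0.74) and Mvd (0.44) were higher in MDSC, Mvd without support when MDSC replicate 3, GFE replicate 2 or GFE replicate 3 was left out (adjusted p up to 0.0906). Sqle (-0.27, SE 0.17), Fdps (0.42) and Stard4 (-0.18, SE 0.11) were not called. On the 6 compared arrays alone Hsd17b7 (-0.67, adjusted p = 4.38e-04) and Sc5d (-0.27, adjusted p = 0.0328) were called lower as well, and Fdps higher.

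The sensing genes split as well: Insig1 (-0.57) and Srebf2 (-0.47) were lower in MDSC, and Srebf1 (0.44) was higher. The widest difference of all members was that of Abcg1, 3.14 log2 higher in MDSC (8.84-fold, SE 0.12, adjusted p = 6.85e-12). Abca1 (-0.32, SE 0.16, adjusted p = 0.141) and Mylip (0.01, SE 0.14, adjusted p = 0.965), grouped with Abcg1 here, were not called. For Abca1 the MDSC mean was near background (percentile 37.2), so its difference is a bound and a larger one could have been missed. Npc1 was higher in MDSC by 1.25, Lpcat3 by 0.83 and Npc2 by 0.61. Of the scavenger and lipoprotein receptors 8 of 11 were higher and 1 lower, with Msr1 higher by at least 3.73 and Vldlr lower by at least 2.70 (difference -2.70). Fatty acid genes gave 2 higher and 1 lower of 8, with Me1 at -2.23 and Scd1 at 1.34. Over all genes 16.6% were higher and 18.9% lower. Of the marker lists, 12 of 15 neutrophil genes were higher in MDSC and 1 lower, and 10 of 14 progenitor genes lower and 4 higher. Of the monocyte and macrophage markers 8 of 14 were higher and 3 lower, and of the genes of dividing cells 7 of 14 higher and 3 lower. Their part in these differences was not tested.

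The mean signal of the 17 enzymes and that of the 3 efflux genes were set side by side on each array, as a description with no test. The enzyme mean was 7.14 to 7.34 on the 9 arrays of cells not cultured, 9.50 to 9.61 on GFE and 9.15 to 9.19 on MDSC. The efflux mean was 8.52 to 8.81 on GFW and GFK, 7.84 to 8.13 on RB, 7.32 or 7.33 on MDSC and 6.35 to 6.42 on GFE. Their difference, enzymes minus efflux, was -1.36 ± 0.12 on GFW, -1.44 ± 0.03 on GFK, -0.73 ± 0.08 on RB, 1.85 ± 0.02 on MDSC and 3.17 ± 0.06 on GFE (SD, n = 3). The MDSC efflux mean combines low Abca1 and Mylip with high Abcg1.

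**Figure D4:**
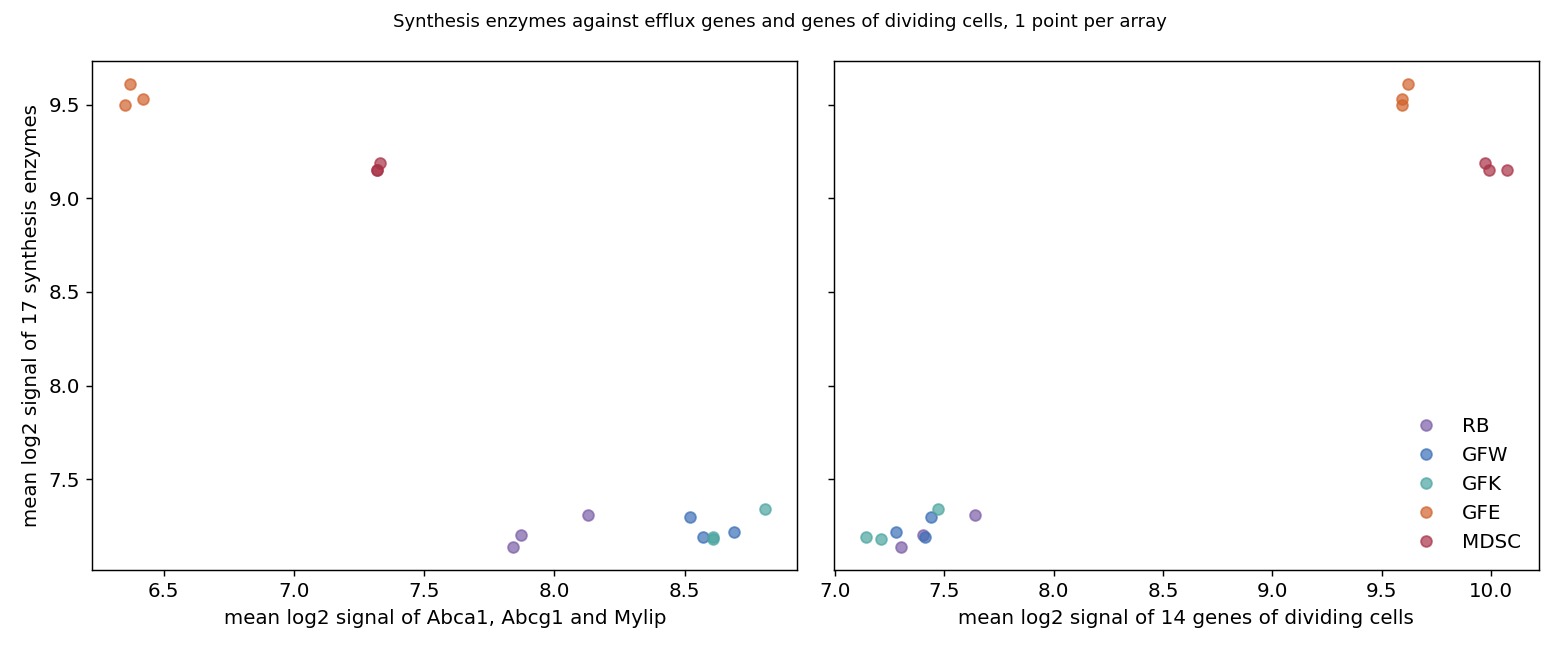
Mean log2 signal of the 17 synthesis enzymes on each array (vertical) against the mean of Abca1, Abcg1 and Mylip (left) and of 14 genes of dividing cells (right), coloured by group. The enzyme mean is 9.15 or more on the 6 arrays of cultured cells and 7.34 or less on the other 9, and the dividing-cell mean separates the same arrays.

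The 2 wild-type sets carry the same labels, and RB minus GFW shows how far such sets differ. Of the 17 enzymes, 3 were higher on RB and 1 lower, with a median of 0.08 (52.4% of all genes called, 25.8% higher and 26.5% lower, median -0.06). With array medians subtracted, the median of all genes becomes 0.00 and the higher share of calls goes from 49.4% to 56.2%. Sqle (0.72), Hmgcs1 (0.66) and Dhcr7 (0.54) were higher. Sc5d was the exception in the other direction: it stood at 7.74, 7.74 and 8.11 on RB, 9.16, 9.48 and 9.52 on GFK and 9.76, 9.67 and 9.64 on MDSC, and RB lay 2.05 below GFW (SE 0.12, adjusted p = 2.26e-09). Hsd17b7 (-0.44, SE 0.26, RB being near background) was not called, but without RB replicate 3 it was called lower, at -0.86 (adjusted p = 9.07e-04). Without that array Lss was called higher, at 0.38 (adjusted p = 0.0436), with GFW near background. Msmo1 was called lower without RB replicate 1 (-0.35, adjusted p = 0.0495) or GFW replicate 2 (-0.37, adjusted p = 0.0375). Mvk was called higher without RB replicate 1 (0.51, adjusted p = 0.00495), and Cyp51 without RB replicate 2 (0.58, adjusted p = 0.00962).

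Outside the enzymes, Insig1 (1.43), the lysosomal Npc2 (1.30), Stard4 (0.93) and Lpcat3 (0.34) were higher on RB, and Abca1 was lower by 1.76 (SE 0.16, adjusted p = 2.62e-07). Abcg1 (0.15, SE 0.12) and Mylip (-0.33, SE 0.14) were not called, but without RB replicate 3 Mylip (-0.45, adjusted p = 0.0228) and Insig2 (-0.53, adjusted p = 0.0123) were called lower too, and Nr1h3 higher (0.76, adjusted p = 0.00312). The Lpcat3 call was lost where only the 6 arrays compared were fitted (adjusted p = 0.0579). The scavenger receptors Msr1 (at least 4.64) and Scarb1 (2.04) and the receptor Lrp1 (2.23) were higher, as 6 of 11 of their list were and 1 was lower. Of the further LXR-responsive and sterol-handling genes 6 of 11 were higher and 1 lower, led by Lpl (3.25), Cyp27a1 (2.90) and Pltp (2.18). Fatty acid genes gave 5 higher and 1 lower of 8, and isoprenoid genes 6 higher and 0 lower of 12, here between 2 sets that were not cultured. Genes of electrons and acetyl units gave 2 higher and 2 lower of 8, and SREBP processing genes 1 higher and 1 lower of 7. These counts leave out calls on Vldlr, Ch25h and Scd1, whose signals lay under the floor of the filter on both RB and GFW. Over all genes 25.8% were higher and 26.5% lower. Of the monocyte and macrophage markers 10 of 14 were higher on RB and 2 lower, and of the neutrophil markers 13 of 15 were lower and 1 higher. Of the progenitor markers 8 of 14 were lower on RB and 0 higher. The part of these markers in the differences was not tested.

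GFK minus GFW set the arrays labelled iNOS knockout beside wild type. Of the 17 enzymes 0 were higher and 1 was lower, and of the 13 other members 1 was higher and 0 lower, while 1.61% of all genes were called, 1.30% higher and 0.317% lower. The called genes were Sc5d (-0.53, SE 0.12, adjusted p = 0.0448) and Lpcat3 (0.50, SE 0.10, adjusted p = 0.0132). The Sc5d call was lost without any 1 of the 6 arrays (adjusted p up to 0.175), and that of Lpcat3 without GFK replicate 2, GFW replicate 1 or GFW replicate 2 (up to 0.0544). Both were lost where only the 6 arrays compared were fitted. Nsdhl differed by -0.58 with no overlap, and did not pass (SE 0.15, adjusted p = 0.0628). It passed with the trended prior (adjusted p = 0.0421) and without GFW replicate 2 (-0.71, adjusted p = 0.0306).

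The other differences on the arrays labelled knockout ran from -0.24 (Srebf1) to 0.57 (Nr1h3, SE 0.22, adjusted p = 0.291). Abca1 differed by 0.29 (SE 0.16), Abcg1 by 0.01 (SE 0.12) and Mylip by -0.05 (SE 0.14). In the 6 neighbouring lists 0 genes were called on these arrays by limma, beside 1.61% of all genes. Of the B cell markers 2 of 6 were higher there, and their part in the calls was not tested. A p that misses the threshold does not show that the groups are alike, and the differences of the 17 enzymes ran from -0.58 to 0.30.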

How the data were processed

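RNA was labelled with biotin from 6 ug of total RNA per sample, per the labels' protocols. The deposited values are log2 signals that the authors made with RMA in oligo, per the submitters' processing notes. RMA normalises quantiles and so presumes like distributions on all arrays. Tool versions and the annotation's build were in none of the sources used. Values ran from 2.21 to 14.07, with array medians of 5.52 to 5.72, and 0 pairs of arrays were identical. Of 41345 probes, 23521 had 1 gene symbol, 1814 several and 16010 none. Of the first, 23328 matched RefSeq by gene identifier and 0 symbols changed.

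Genes above the 40th percentile of single-gene probe sets (5.34 to 5.58 log2) on at least 3 arrays were kept, 14822 of 22180. Group means were fitted to the 15 arrays together (limma 3.58.1, R 4.3.3, eBayes, 5.33 prior degrees of freedom). Tests were 2-sided, adjusted by Benjamini-Hochberg over every gene kept, with calls under 0.05. A difference is a lower bound ("at least") wherever 1 group's mean fell below that percentile. On simulated data of 14822 genes, 92 to 98% of changes of 1 log2 were recovered over the comparisons. The simulation changed few genes and gave each independent noise, without set or cell type differences. It thus checks the fitting and does not measure recovery in these samples. Python 3.11.15 with pandas 2.3.3 and matplotlib 3.10.9 prepared values and figures.

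The members and lists were chosen with earlier results of these data known. The division at squalene, the count of cultured against uncultured arrays, the likeness of the 2 cultures, and the naming of Sc5d and Ebp followed after values were seen. All 15 values are given for the efflux genes, Insig1, Srebf1, Srebf2, Stard4 and the 6 enzymes with the widest range of group means, and from each further list the called genes with the largest differences are named. Alternatives were array median scaling, no filter, the compared arrays alone, the mean of all probe sets, a trended prior, a 1.5-fold threshold (treat), a replicate block and each array left out.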

Additional observations from a re-analysis of the deposited data

Results flagged for a closer look

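Abcg1 went in opposite directions in the 2 cultured groups, a contrast looked for after its values were seen. Its difference from GFW was -2.61 log2 in GFE and 0.53 in MDSC. The rise in MDSC was small, and its call was lost against the 1.5-fold threshold (treat). The test of the difference itself, in which GFW cancels, gave 3.14 (SE 0.12, limma adjusted p = 6.85e-12), with all 3 MDSC arrays above all 3 GFE arrays. The first part of the bracketed code in the titles also differs between MDSC and GFE, so set and culture cannot be told apart here.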

How the results depend on the processing

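Of 2340 refitted differences of members, 2259 kept their side of the threshold, 55 lost a call and 25 gained a call. In 1 the direction reversed: Npc1 in GFE minus GFW, at -0.16 with the mean of both probe sets. A change of direction was counted only where the main fit or the refit was called. Against a 1.5-fold threshold (treat), genes called higher and lower numbered 2808 and 1425 in GFE minus GFW, 14 and 0 in GFK minus GFW, 1198 and 727 in RB minus GFW, 1449 and 1008 in MDSC minus RB, 2456 and 1193 in MDSC minus GFW, and 774 and 712 in MDSC minus GFE. Under it, the 13 members that are not enzymes gave 3 higher in GFE minus GFW, 1 lower in MDSC minus RB, 4 higher in MDSC minus GFW, and 2 higher and 0 lower in MDSC minus GFE. The enzymes gave 0 higher in RB minus GFW and 0 higher and 2 lower in MDSC minus GFE.

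In GFK minus GFW the enzymes called lower were 0 with median scaling, with no filter, on the compared arrays alone, under treat and with the replicate block, and 2 with the trended prior. The other members called higher were 0 on the compared arrays and under treat. All genes called higher were 72 on the compared arrays, and those lower were 29 with median scaling, 30 with no filter, 2 on the compared arrays and 76 with the trended prior. With 1 array left out, that comparison gave 0 to 1 enzymes lower, 0 to 1 other members higher, 102 to 150 genes higher and 27 to 42 lower. RB minus GFW then gave 1 to 2 enzymes and 1 to 3 other members lower, and MDSC minus GFE 1 to 2 enzymes higher.

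Same-numbered arrays correlated by -0.09 to 0.04, so the numbers were not taken to pair the samples, although each of the 6 arrays was closest to its own number in GFK minus GFW and in RB minus GFW. With the replicate block Sc5d was lost in GFK minus GFW (0 enzymes lower) and Hsd17b7 gained in MDSC minus GFE, and no other call on a member changed. Signals near background limit Lss, Hsd17b7 and Abca1 to bounds. Leaving out arrays for the genes of the neighbouring lists was chosen after the data were seen. The causes of these shifts were not tested.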

Other observations

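Markers of other blood cells differed as well. The removal stated for the mobilised cells used CD4, CD8, Ly6G, B220 and Ter119, and names no marker of NK cells or megakaryocytes. After culture (GFE minus GFW) 5 of 6 B cell markers were lower and 1 higher, 3 of 5 T and NK cell markers were lower, and of 6 erythroid and megakaryocyte markers 1 was higher and 1 lower. Over all genes 35.1% were higher and 31.9% lower, so counts in lists this short say little. The mean of the 6 B cell markers was 7.41 ± 0.16 on GFW, 8.11 ± 0.17 on GFK, 6.55 ± 0.18 on RB, 6.80 ± 0.04 on GFE and 6.23 ± 0.09 on MDSC (SD, n = 3).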
